A study of Mus musculus with 9 samples.

Results

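Ifetroban was compared with vehicle in the left ventricle of wild-type mice with 4 of the 9 RNA-seq libraries of the study, chosen by their titles. These were 2 libraries from animals on plain water (WT vehicle) and 2 from animals given the drug (WT ifetroban). All mice were C57BL/6. Treatment ran from weaning in the drinking water, plain for vehicle and with ifetroban at 25 mg/kg/day for the drug group. Running wheels were provided from time to time in every group, so exercise is shared by drug and control animals. The ventricles were taken from PBS-perfused hearts when the mice were 6 months old. The other 5 libraries, 2 from vehicle and 3 from ifetroban-treated delta-sarcoglycan (Sgcd) knockout mice (KO), entered the model only to estimate the spread between samples. For 1 of them, KO ifetroban replicate 1, the title and the treatment label disagree. The labels do not say that replicates are separate animals, so p-values measure only the spread between these samples, which may be technical.

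Ifetroban blocks the thromboxane-prostanoid (TP) receptor, the product of Tbxa2r. Cyclooxygenases, encoded by Ptgs1 and Ptgs2, turn arachidonic acid into prostaglandin H2, and thromboxane synthase (Tbxas1) turns that into thromboxane A2. Thromboxane A2 and oxidised lipids called isoprostanes act on the TP receptor, a G protein-coupled receptor known for platelet aggregation and for contraction of vascular smooth muscle. The comparison in wild-type mice asks what long receptor blockade does to the transcriptome of a heart without the sarcoglycan defect.

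The 4 libraries held 21648094 and 24302832 counts for WT vehicle and 25337805 and 23831042 for WT ifetroban, and a set of 8 pseudogenes took 22.1% to 28.6% of them. Among these 4, WT vehicle replicate 1 stood apart. Across 13051 protein-coding genes, Spearman's rank correlation between a library's deviation from the mean of all 9 libraries and transcript length was -0.46 in WT vehicle replicate 1. It was 0.41 in WT vehicle replicate 2 and 0.43 in both WT ifetroban libraries, so short transcripts read high and long transcripts low in that 1 vehicle library. The median absolute log2 difference in CPM (counts relative to the library total, after TMM adjustment) between the 2 vehicle libraries was 0.34, and WT vehicle replicate 1 differed from the ifetroban libraries by 0.33 and 0.34. WT vehicle replicate 2 differed from the same ifetroban libraries by 0.15 and 0.14, no more than the 0.16 between the ifetroban libraries themselves. The biological coefficient of variation was 0.238 within WT vehicle and 0.117 within WT ifetroban. Over all 9 libraries the slope was negative in 4 and positive in 5, and 3 of the 5 KO libraries had a negative one (-0.40 to -0.52), so the trait itself is not limited to WT vehicle replicate 1. Counts, list medians and most single genes are therefore also given without that library.

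**Figure D1:**
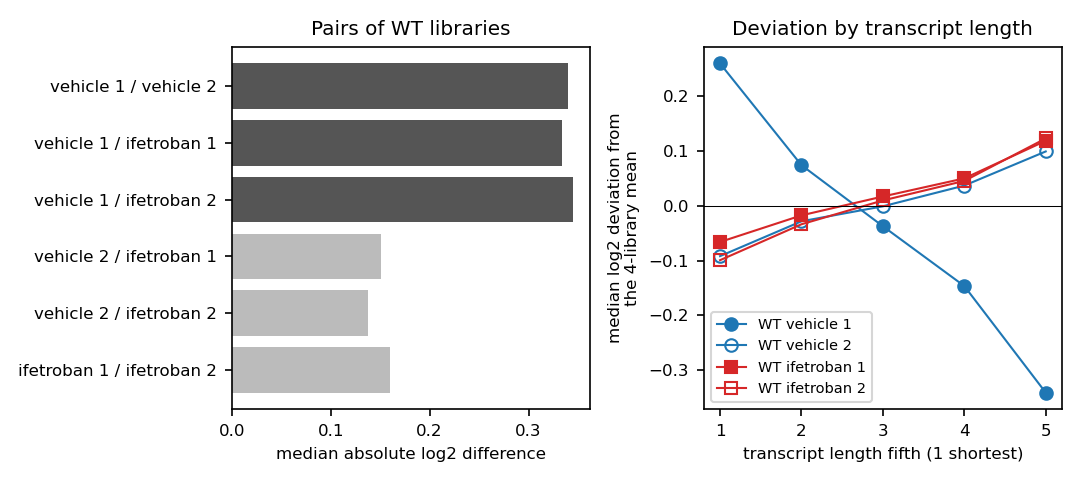
Median absolute log2 difference in CPM for each of the 6 pairs of wild-type libraries (left, bars, with the 3 pairs that include WT vehicle replicate 1 in dark grey) and median log2 deviation of each library from the mean of the 4 for genes in 5 classes of transcript length (right, 1 line per library). The 3 dark bars lie at 0.33 to 0.34 and the others at 0.14 to 0.16, and WT vehicle replicate 1 runs from 0.26 in the shortest class to -0.34 in the longest.

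The tissue labels were checked against defining markers. Summed over 8 cardiomyocyte genes (among them Myh6, Tnnt2 and Ryr2), levels were 45390 and 48520 CPM in WT vehicle and 49180 and 50370 CPM in WT ifetroban. Atrial markers summed to 0.667 to 1.71 CPM, skeletal muscle markers to 0.205 to 0.333 CPM, adipocyte markers to 0.0404 to 0.203 CPM and lymphocyte markers to 0.929 to 1.62 CPM, with Adipoq and Myh4 at 0 counts in all 4 libraries. Fibroblast markers summed to 549 to 574 CPM, endothelial ones to 523 to 799, smooth muscle and pericyte ones to 866 to 1092, and macrophage ones to 104 to 133. Over these few markers, the lowest endothelial and smooth muscle sums were those of WT vehicle replicate 1. The sums of the longer lists described below did not share this order. There, its smooth muscle and pericyte sum was the highest, at 3761 CPM against 3730, 3582 and 3551 CPM. Gene by gene, however, 11 of those 18 were lowest in that library (all genes: 40.2%) and 2 were highest (all genes: 34.9%). The endothelial sum of WT vehicle replicate 1, 2328 CPM, lay between the 2485 and 2270 CPM of the ifetroban libraries. Of those 26 genes, 11 were lowest in it and 12 highest. In bulk tissue, fewer cells of a type and less RNA per cell cannot be told apart. The part of that library's low reading of long transcripts was not tested.

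No gene differed between WT ifetroban and WT vehicle beyond the spread between libraries. With edgeR's quasi-likelihood test and Benjamini-Hochberg adjustment, 0 of 15549 genes (0%) passed an adjusted p of 0.05 in either direction, and the smallest adjusted p was 0.881. At an unadjusted p under 0.05 there were 350 genes (2.25%), 160 of them higher under ifetroban (1.03%) and 190 lower (1.22%). DESeq2 and limma-voom also gave 0 genes past the threshold, with 311 and 318 at an unadjusted p under 0.05. When WT vehicle replicate 1 was left out, the counts were 0 and 219 of 16083 (1.36%). When WT vehicle replicate 2 was left out so that the deviating library was the only vehicle sample, they were 0 and 2941 of 16027 (18.4%). With the length slope as a term in the model they were 0 and 381 (2.45%). Of the 350 genes, 68 (19.4%) kept their direction and an unadjusted p under 0.05 when WT vehicle replicate 1 was left out, 21 higher and 47 lower. The 2 fits share 8 libraries. Those 68 are 35.8% of the 190 genes of this table that had such a p without that library.

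The median log2 fold change over all genes was 0.01, and 51.9% of genes were higher under ifetroban. In 2733 genes (17.6%) both ifetroban libraries lay above both vehicle libraries, and in 2153 (13.8%) they lay below. From the shortest to the longest of 5 classes of transcript length, the median log2 fold change ran through -0.18, -0.05, 0.03, 0.10 and 0.22. With WT vehicle replicate 1 left out it lay within 0.02 of 0 in each class, and without WT vehicle replicate 2 it ran from -0.34 to 0.47. The order of the length classes was thus present only in fits that held WT vehicle replicate 1, among these 3.

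The precision of the data sets what could be seen. The 95% interval of a log2 fold change had a median half-width of 0.38 for genes above 100 CPM, 0.40 from 10 to 100 CPM, 0.63 from 1 to 10 CPM and 1.40 below 1 CPM. In simulated counts with this design, edgeR recovered 40% of genes set to differ by a log2 value of 1 and 77% of genes set to differ by 2. The simulated libraries had the same underlying levels apart from 200 genes set to change, so none deviated as a whole along transcript length. The spread of each gene was that estimated from the real libraries, including the one that deviated. The test also made 12 false calls there. Recovery in the real libraries may be lower. A 2-fold difference was thus often missed even in the simulation, and the count of 0 does not show that the transcriptomes were alike.

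Tbxa2r, which encodes the blocked receptor, was measured at 2.41 and 3.12 CPM in the vehicle libraries and at 3.43 and 1.87 CPM in the ifetroban libraries, from 45 to 85 counts. The groups overlapped, with the highest and the lowest value both under ifetroban. Its log2 fold change was -0.06 ± 0.39 (SE), with a 95% interval from -0.93 to 0.80 and an edgeR adjusted p of 0.974, and it was -0.24 without WT vehicle replicate 1. The gene lies at chr10:81328732-81335171 on the plus strand (mm10).

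Of the 23 genes listed for prostanoid receptors, synthesis and clearance, 19 were tested, 0 passed the threshold and 7 had a positive fold change. The median log2 fold change was -0.06, against 0.01 over all genes, and -0.02 without WT vehicle replicate 1. Among the receptors, Ptgir (prostacyclin) lay at 5.64 and 7.17 CPM under vehicle and 6.74 and 6.66 CPM under ifetroban, and Ptgfr (prostaglandin F) at 3.39 and 3.48 against 5.69 and 2.46 CPM. Ptger1, an E2 receptor, was measured at 0.462 and 1.21 against 0.767 and 1.67 CPM. The values of these 3 receptors overlapped between the groups. Ptger4, another E2 receptor, stood at 11.7 CPM in WT vehicle replicate 1 and at 4.01 to 5.81 CPM in the other 3 libraries. Its log2 fold change was -0.58 ± 0.39 (SE) with all libraries and 0.37 without that one, so its sign was set by a single library. Ptger2, Ptger3 and Ptgdr2 had at most 8 counts in a wild-type library and were not tested, and Ptgdr was not analysed here.

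The enzymes gave the same picture, with 1 exception at the level of single values. Ptgs1 lay at 5.59 and 5.67 CPM under vehicle and 5.85 and 4.33 CPM under ifetroban. The inducible Ptgs2 was at 2.92 CPM in WT vehicle replicate 1 and at 0.445 to 0.767 CPM elsewhere, with a log2 fold change of -1.32 with all libraries and 0.54 without it. Tbxas1 was measured at 1.44 and 2.31 CPM against 1.66 and 1.58 CPM, and the prostacyclin synthase Ptgis at 15.6 and 12.1 CPM against 15.7 and 9.24 CPM. Both overlapped between the groups, as did the E synthases Ptges, Ptges2 and Ptges3, the haematopoietic D synthase Hpgds and the phospholipase Pla2g4a, whose log2 fold changes lay between -0.32 and 0.13.

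Ptgds was the only one of the 19 with an unadjusted p under 0.05 (all genes: 2.25%). It encodes lipocalin-type prostaglandin D synthase and lies at chr2:25466709-25470046 on the minus strand. Its level was 628 and 395 CPM in the vehicle libraries and 285 and 341 CPM in the ifetroban libraries. It was lower in both treated samples, as were 13.8% of all genes. The log2 fold change of Ptgds was -0.71 ± 0.22 (SE), with a 95% interval from -1.21 to -0.20 and an edgeR adjusted p of 0.881. Without WT vehicle replicate 1, the highest of the 4, it was -0.35. On the clearance side, the transporter Abcc4 was at 12.8 and 17.0 CPM against 21.8 and 17.7 CPM, a log2 fold change of 0.40 that was 0.20 without WT vehicle replicate 1. The degrading enzyme Hpgd, the carbonyl reductase Cbr1 and the transporter Slco2a1 had overlapping groups and log2 fold changes from -0.03 to 0.21.

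**Figure D2:**
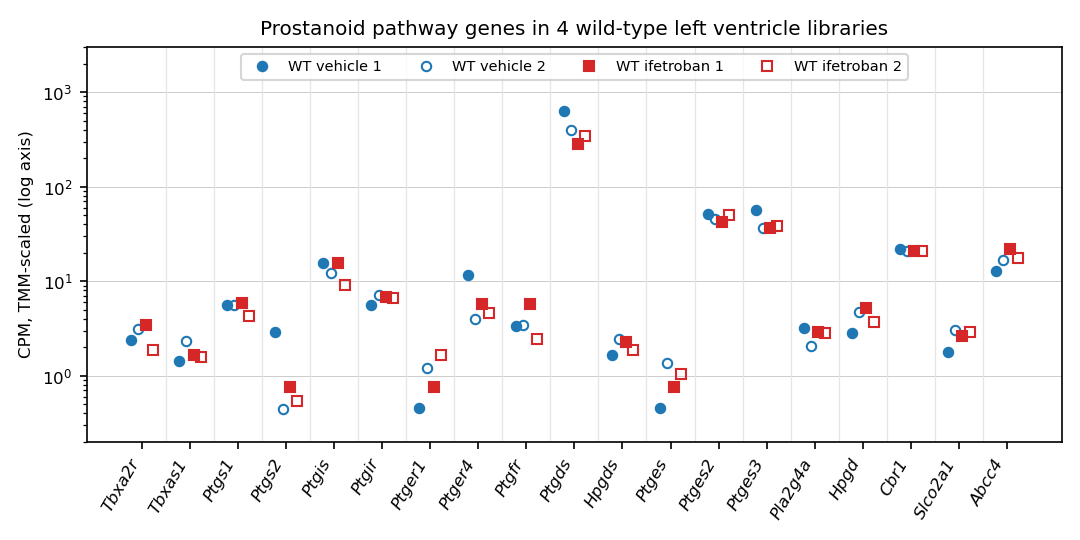
Level in TMM-scaled CPM (log axis) of the 19 tested prostanoid genes in each wild-type library (circles vehicle, squares ifetroban, filled for replicate 1 and open for replicate 2). The groups overlap for 17 genes. Among all genes tested, 17.6% lay higher and 13.8% lower under ifetroban without overlap. Ptgds lies at 285 to 341 CPM under ifetroban and 395 to 628 under vehicle, and Abcc4 at 17.7 to 21.8 CPM under ifetroban and 12.8 to 17.0 under vehicle.

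Partners through which the TP receptor signals (G protein subunits, phospholipases and the like) numbered 27, of which 0 passed the threshold. Their median log2 fold change was 0.11, and 0.03 without WT vehicle replicate 1, with all values between -0.23 and 0.43. The smallest p belonged to Plcb4, a phospholipase C isoform, at 52.6 and 54.6 CPM under vehicle and 76.1 and 62.2 CPM under ifetroban. Transcripts of this list had a median length of 5430.5 bases, at the long end where WT vehicle replicate 1 read low.

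Markers of cardiac load were examined next. The natriuretic peptide gene Nppa lay at 213 and 202 CPM under vehicle and 202 and 272 CPM under ifetroban, and Nppb at 185 and 205 against 129 and 244 CPM. Neither separated the groups, with log2 fold changes of 0.19 ± 0.31 (SE) and -0.07 ± 0.31 (SE), and of 0.22 and -0.15 without WT vehicle replicate 1. Myh7, the slow myosin heavy chain that the adult mouse ventricle replaces by Myh6, stood at 162 and 158 CPM under vehicle and at 256 and 368 CPM under ifetroban. Both treated libraries were above both controls. The log2 fold change of Myh7 was 0.96 ± 0.48 (SE), with a 95% interval from -0.12 to 2.05 and an edgeR adjusted p of 0.881, and 0.97 without WT vehicle replicate 1. Over the 24 tested cardiac stress and fetal genes the median was 0.10, and 0.21 without that library, with 16 of 24 higher and 0 past the threshold. Xirp2, a protein of the intercalated disc, was at 824 and 902 CPM against 1134 and 1128 CPM, the only member with an unadjusted p under 0.05. Its log2 fold change was 0.39, and 0.31 without WT vehicle replicate 1, where that p was no longer reached.

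Sgcd, the gene deleted in the knockout mice of the study, was measured at 8.36 CPM in WT vehicle replicate 1 and at 20.9, 23.7 and 23.5 CPM in WT vehicle replicate 2 and the ifetroban libraries. All 4 wild-type libraries thus carried the transcript. The log2 fold change was 0.68 ± 0.38 (SE), and 0.16 without WT vehicle replicate 1. The 22 genes of the dystrophin complex had a median of 0.18 (0.03 without that library), with 16 higher and 0 past the threshold, and the smallest p was that of the caveolin Cav3, at 61.7 and 41.4 CPM against 37.7 and 37.1 CPM.

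The 12 genes with the smallest p in each direction, among genes whose groups did not overlap and which averaged 1 CPM or more, had edgeR adjusted p of 0.881, so none passed. On the higher side, log2 fold changes ran from 0.49 to 1.41. Frzb, a secreted Wnt antagonist at chr2:80411970-80447625, had the smallest p of all, with 3.23 and 3.48 CPM under vehicle and 7.91 and 5.95 CPM under ifetroban. The vehicle values of Frzb lay close together, and the difference was 1.04 ± 0.22 (SE) with all libraries and 0.98 without WT vehicle replicate 1. The growth factor gene Pdgfd was at 12.1 and 12.8 CPM against 18.5 and 16.3 CPM, and the receptor gene Met, which binds hepatocyte growth factor, at 0.923 and 1.62 against 2.50 and 3.21 CPM. Hrh2, the histamine H2 receptor, was measured at 0.359 and 0.891 CPM against 1.70 and 1.71 CPM, and the mitochondrial uncoupling protein gene Ucp3 at 28.9 and 22.3 CPM against 42.9 and 33.8 CPM. Without WT vehicle replicate 1 the log2 fold changes of Pdgfd, Met, Hrh2 and Ucp3 were 0.43, 0.80, 0.92 and 0.77, against 0.49, 1.14, 1.41 and 0.58 with it. Epb41l5, Enpp6, Fstl4, Mcm5, Aim1, Atad5 and the pseudogene Amd-ps3, whose reads may stem from its parent gene, complete the 12.

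On the lower side, log2 fold changes ran from -1.68 to -0.52. Rrad, a small GTPase that restrains the L-type calcium channel, stood at 213 and 252 CPM under vehicle and 147 and 105 CPM under ifetroban. It lies at chr8:104628066-104631321 on the minus strand. The difference in Rrad was -0.88 ± 0.25 (SE), and -1.01 without WT vehicle replicate 1. Snhg14, a long non-coding RNA of an imprinted region, was at 12.2 and 9.36 CPM against 5.69 and 5.75 CPM, and the cytochrome P450 gene Cyp4f13 at 3.64 and 4.66 against 2.62 and 1.92 CPM. The ifetroban values of Snhg14 nearly coincided. Gstp2, a glutathione transferase whose reads can be shared with its close copy Gstp1, was at 2.77 and 1.5 CPM against 0.646 and 0.666 CPM. The others were AI593442, Hemk1, Evi2a, Nek3, Oard1, Rarres2 (the adipokine chemerin), Fah (an enzyme of tyrosine breakdown) and Ptgds. Without WT vehicle replicate 1, all 24 genes kept their direction. They were chosen for groups without overlap, so leaving out 1 vehicle library could hardly reverse a direction. The 24 genes were picked by this same contrast, so their sizes are a description.

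**Figure D3:**
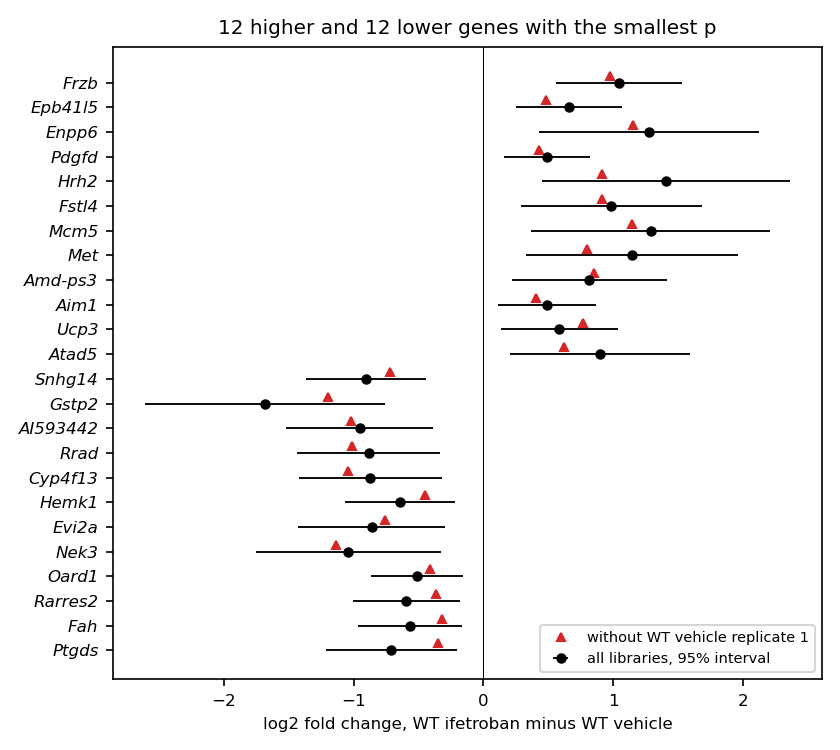
Log2 fold change, WT ifetroban minus WT vehicle, of the 12 higher and 12 lower genes with the smallest p (circles with 95% intervals) and the same without WT vehicle replicate 1 (triangles). Values without that library run from 0.40 to 1.16 for the higher genes and from -1.20 to -0.32 for the lower ones, none with an adjusted p below the threshold.

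By size alone, 211 genes had a log2 fold change of at least 1 and 288 of at most -1. Of these, 25 higher and 47 lower genes had groups without overlap and averaged 1 CPM or more. Gene lists fitting the heart and the drug were then described by counts and medians, with 0 genes past the threshold in each of the 34 lists. Of 23 list members named below or above for an unadjusted p under 0.05, all kept their direction without WT vehicle replicate 1. All but Nr4a1 had groups without overlap, so leaving out 1 vehicle library could hardly reverse their direction. List counts are to be set against all genes, of which 2.25% had an unadjusted p under 0.05 and 51.9% were higher under ifetroban.

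Genes of contraction and excitation lay near the median of all genes once the deviating library was left out. The 29 sarcomere genes had a median log2 fold change of 0.09 (0.03 without WT vehicle replicate 1), and the 29 of the calcium handling list 0.10 (-0.03). The smallest p in these lists were those of the filamin Flnc, at 301 and 388 CPM against 444 and 426 CPM, and the potassium channel Kcnj11, at 32.9 and 53.0 against 55.4 and 62.4 CPM. In both genes the low value was that of WT vehicle replicate 1. Calcineurin and NFAT genes (18) had a median of 0.07 (0.01 without it), with Camk2b at 10.3 and 14.1 against 15.8 and 15.6 CPM. Targets of the factors SRF and MRTF (25) had a median of 0.02 (-0.03), and the matricellular gene Cyr61 was at 151 and 108 CPM against 63.1 and 78.1 CPM.

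Genes of energy metabolism in part followed the deviating library. Of 57 nuclear genes of oxidative phosphorylation, 54 were highest in WT vehicle replicate 1, against 34.9% of all genes, and the median log2 fold change was -0.31. Both ifetroban libraries lay below both vehicle libraries in 36 of them (all genes: 13.8%). The median without it was -0.05, and with the length slope as a term in the model it was also -0.05. That term holds only the sign of each library's slope, which among the wild-type libraries is negative in WT vehicle replicate 1 alone. The 2 values are therefore largely the same comparison. The transcripts of these genes had a median length of 1363 bases, among the shortest. Cox7a1, a muscle isoform of cytochrome oxidase, was at 441 CPM in WT vehicle replicate 1 and at 272, 259 and 241 CPM in WT vehicle replicate 2 and the ifetroban libraries. Fatty acid oxidation genes and PPAR targets (36) had a median of -0.06 (-0.04 without that library), and glucose use genes (28) -0.03 (0.01), with Pfkl, a phosphofructokinase, at 109 and 120 CPM against 125 and 140 CPM.

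Extracellular matrix genes, mostly long transcripts, went the other way. Of 55 tested, 42 were higher under ifetroban, with a median log2 fold change of 0.18, and 34 were lowest in WT vehicle replicate 1 (all genes: 40.2%). In its absence 32 of 55 were higher and the median was 0.05. Ltbp2, which binds fibrillin, stood at 2.56 and 4.78 CPM against 8.44 and 7.58 CPM, a log2 fold change of 1.11 ± 0.39 (SE) and of 0.73 without WT vehicle replicate 1. Thbs4, a thrombospondin, was at 4.57 and 4.05 CPM against 6.46 and 6.54 CPM, and its value of 0.60 became 0.67 without that library. These 2 of 55 were the only matrix genes with an unadjusted p under 0.05 (all genes: 2.25%).

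Lists of the other cell types gave medians of 0.09 (fibroblast, 22 genes), 0.02 (endothelial, 26), 0.01 (smooth muscle and pericyte, 18), 0.02 (macrophage, 33), -0.29 (lymphocyte, 10) and 0.09 (adipocyte, 6). Without WT vehicle replicate 1 they were -0.03, -0.02, -0.17, -0.05, -0.44 and -0.04, in the same order. Of the smooth muscle and pericyte genes 14 of 18 were highest in WT vehicle replicate 2 (all genes: 19.7%). Higd1b, which had the smallest p of that list, was not among the 14, at 5.39 and 4.54 CPM against 3.80 and 3.62 CPM. Thy1, a surface protein of fibroblasts and nerve, was at 9.23 and 9.40 CPM against 7.83 and 5.91 CPM, and the arterial connexin Gja4 at 12.1 and 12 against 10.5 and 7.58 CPM. These had an unadjusted p under 0.05, with vehicle values almost equal and the lower value under ifetroban in replicate 2 each time. Lgals3 had the smallest p of the macrophage list (2.00 and 1.90 against 4.52 and 2.12 CPM), Cd4 of the lymphocyte list (0.256 and 0.769 against 1.33 and 0.999 CPM) and Cidea of the adipocyte list (30.2 and 16.8 against 15.6 and 20.7 CPM). The atrial, conduction, nerve and mesothelial list (16 genes) had a median of -0.31 (-0.57 without that library), with Mbp at 2.41 and 3.28 against 2.14 and 1.58 CPM. For skeletal muscle genes (9) it was -0.43 (-0.01), with Tnnt1 at 7.49 and 6.76 against 5.73 and 4.87 CPM.

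Vascular tone and natriuretic signalling (27 genes) had a median of 0.10 (-0.01 without WT vehicle replicate 1), and Pde5a, which breaks down cyclic GMP, was at 3.85 and 6.52 CPM against 7.95 and 6.95 CPM. Coagulation and fibrinolysis (21) had -0.10 (0.00). Its smallest p was that of F5, whose levels of 0.564 and 0.202 CPM against 0 and 0.0833 CPM lie at the limit of detection. Xenobiotic and drug metabolism (27) had a median of 0.04 (0.06) and 17 of 27 higher. Apart from Cyp4f13, the ethanol-metabolising Cyp2e1 had an unadjusted p under 0.05, with 0.0513 and 0.162 CPM against 0.606 and 0.250 CPM. All 4 of these values are far below 1 CPM.

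Stress and immune lists depended on the deviating library in both directions. Interferon response genes (33) had a median of -0.04, and 20 of 33 were highest in WT vehicle replicate 2 (all genes: 19.7%). The median without WT vehicle replicate 1 was -0.21, and 1 of 33 was higher under ifetroban, against 15 of 33 with all libraries. Xaf1, an interferon-induced gene, was at 5.80 and 5.79 CPM against 4.44 and 3.46 CPM, a log2 fold change of -0.55 ± 0.21 (SE) that was -0.56 without that library. Glucocorticoid response genes (20) had a median of 0.00, and 0.42 without WT vehicle replicate 1, with 10 and 17 of 20 higher. Over all genes, 51.9% were higher with all libraries, and 7866 of 15549 without WT vehicle replicate 1. The glucocorticoid median moved with each wild-type library left out. It was -0.35 without WT vehicle replicate 2, -0.31 without WT ifetroban replicate 1 and 0.30 without WT ifetroban replicate 2. Per1 and Tsc22d3 of this list are also in the clock list described below. Ddit4, an inhibitor of mTOR signalling, stood at 18.0 and 24.8 CPM against 27.6 and 40.3 CPM. Heat shock genes (20) had -0.05 and 0.14, with Hsf1 at 28.1 and 25.6 against 24.8 and 21.9 CPM. Antioxidant and NRF2 genes (28) had -0.11 and 0.05, with Gclc, of glutathione synthesis, at 11.2 and 12.1 against 13.8 and 15.4 CPM. The unfolded protein and integrated stress response list (29) had -0.12 and 0.06, with Asns, asparagine synthetase, at 1.44 and 1.5 against 2.50 and 2.41 CPM. Inflammation and adhesion genes (29) had -0.16 and -0.08, with the neutrophil gene S100a9 at 3.44 CPM in WT vehicle replicate 1 and 0.972, 0.767 and 0.375 CPM in the others.

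**Figure D4:**
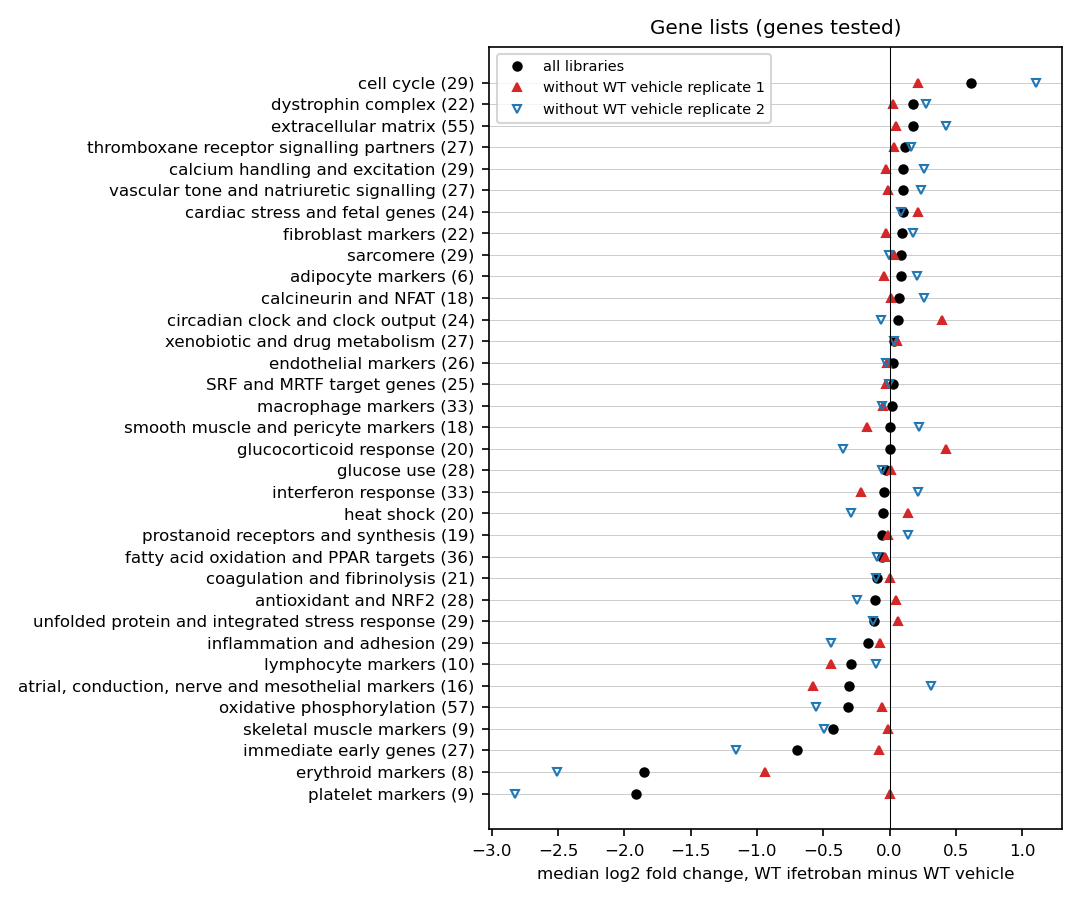
Median log2 fold change, WT ifetroban minus WT vehicle, of 34 gene lists (number of tested genes in brackets) with all libraries (circles) and without WT vehicle replicate 1 (filled triangles) or replicate 2 (open triangles). Platelet, erythroid, immediate early and cell cycle lists lie farthest from 0 with all libraries, at -1.91, -1.85, -0.70 and 0.62, and lie at 0.00, -0.94, -0.08 and 0.22 without WT vehicle replicate 1.

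Immediate early genes, which are transcribed within minutes of a stimulus or of tissue handling, were high in WT vehicle replicate 1. Of 27 tested, 24 were highest there (all genes: 34.9%). Nr4a1, an orphan nuclear receptor, was at 164 CPM in WT vehicle replicate 1, 12.9 in WT vehicle replicate 2, and 9.0 and 13.1 in the ifetroban libraries. Junb, a subunit of the AP-1 factor, was at 121 and 37.3 CPM against 26.2 and 30.0 CPM, and Egr3, a zinc finger factor, at 1.80 and 0.567 against 0.283 and 0.375 CPM. These 3 were the members with an unadjusted p under 0.05 (all genes: 2.25%). Their log2 fold changes were -3.0, -1.49 and -1.80 with all libraries and -0.24, -0.42 and -0.79 without WT vehicle replicate 1. The list's median log2 fold change was -0.70 with all libraries and -0.08 without WT vehicle replicate 1, and 12 of 27 genes were then higher.

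Red cell and most platelet genes were also highest in WT vehicle replicate 1, although the hearts were perfused. All 8 tested erythroid genes were highest in WT vehicle replicate 1 and lowest in WT ifetroban replicate 1. The beta globin gene Hbb-bs was at 634 and 226 CPM under vehicle and 63.4 and 164 CPM under ifetroban, and the alpha globin gene Hba-a1 at 353 and 112 against 34.2 and 83.1 CPM. Globin genes are near-identical copies, so the split of reads among them is uncertain. Hbb-bt lay at 192 and 44.5 against 14.1 and 33.1 CPM, and the red cell membrane transporter Slc4a1 at 2.10 and 0.324 against 0.0404 and 0.291 CPM. Hba-a1, Hbb-bt and Slc4a1 had an unadjusted p under 0.05 (all genes: 2.25%). Their log2 fold changes of -1.99, -2.32 and -2.81 were -0.95, -0.93 and -0.97 without WT vehicle replicate 1. The median over the 8 genes was -1.85, and -0.94 without WT vehicle replicate 1. Of 9 tested platelet genes, 7 were highest in WT vehicle replicate 1, and the median of -1.91 became 0.00 without it. Clec1b, a receptor on platelets, had 8 counts and 1 count under vehicle and 0 in both ifetroban libraries. With a floor of 3 counts put in for the ifetroban group, the observed level was 3.31-fold lower there. The list's median with Clec1b at that value was -1.84. The 95% interval of its log2 fold change ran from -11.3 to 0.47, so no change was within it. The defining platelet markers Pf4, Ppbp and Itga2b summed to 8.79 CPM in WT vehicle replicate 2, between the 11.1 and 7.66 CPM of the ifetroban libraries, and to 18.4 CPM in WT vehicle replicate 1. What part blood content or handling of the tissue had in these values was not tested.

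Cell cycle genes were high in 1 ifetroban library. Of 29 tested, 25 were highest in WT ifetroban replicate 1 (all genes: 23.4%) and 21 were lowest in WT vehicle replicate 1 (40.2%). The median log2 fold change was 0.62. It was 0.22 without WT vehicle replicate 1 and 0.11 without WT ifetroban replicate 1. Mcm5 and Mcm6, subunits of the replication helicase, were at 1.69 and 2.07 against 6.10 and 3.12 CPM and at 5.44 and 6.52 against 9.53 and 7.37 CPM. E2f1, which drives entry into S phase, was at 1.03 and 0.972 CPM under vehicle, 3.59 CPM in WT ifetroban replicate 1 and 1.04 CPM in WT ifetroban replicate 2. These 3 had an unadjusted p under 0.05 (all genes: 2.25%). In each, the second ifetroban library lay nearer to the vehicle values than the first did. The log2 fold changes of Mcm5, Mcm6 and E2f1 were 1.29, 0.50 and 1.21 with all libraries, 1.14, 0.36 and 1.24 without WT vehicle replicate 1, and 0.73, 0.30 and 0.06 without WT ifetroban replicate 1. Leaving out WT ifetroban replicate 1 also moved the medians of the inflammation and adhesion list (-0.16 to -0.74), the macrophage list (0.02 to -0.31) and the glucocorticoid response list (0.00 to -0.31).

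A few circadian clock genes differed several-fold between replicates, in the same direction in both treatment groups. The clock is a feedback loop in which the activators encoded by Arntl (also called Bmal1), Clock and Npas2 act through E-boxes on Per, Cry, Nr1d and Ciart genes, whose products feed back to repress the activators or their genes, and on output genes such as Dbp. In the heart it cycles daily. Arntl stood at 1.85 CPM in WT vehicle replicate 1 and 1.70 CPM in WT ifetroban replicate 1, but at 15.1 and 13.7 CPM in the replicates numbered 2. Dbp was in the opposite state, at 212 and 188 CPM in the replicates numbered 1 and 43.5 and 27.4 CPM in those numbered 2. Ciart (17.8 and 13.6 against 2.07 and 1.62 CPM), Per2 (26.8 and 27.7 against 4.98 and 7.83 CPM) and Per1 (51.0 and 55.6 against 16.8 and 14.4 CPM) were high where Dbp was high. Npas2, at 1.13 and 1.25 against 6.16 and 4.95 CPM, was high where Arntl was high.

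Of the 24 clock genes, 22 had the same sign of the difference between replicates 1 and 2 in both treatment groups, against 51.9% of all genes. In 6 of 24 (25%) the difference was past 2-fold in both groups and in the same direction, against 0.772% of all genes. Pearson's r between the differences in the 2 groups was 0.945 over these 24 genes and 0.04 over all 15549, given as a description across genes, which are not independent replicates. Between treatments, the list's median log2 fold change was 0.06 with all libraries and 0.40 without WT vehicle replicate 1, which leaves a low-Arntl and a high-Arntl library under ifetroban against a single high-Arntl one under vehicle. The smallest p of the list was that of the kinase gene Wee1, at 6.26 and 4.70 CPM against 11.3 and 7.49 CPM, a wider difference between treatments than between replicates. The labels give no hour of collection, and its part in these values was not tested. With the level of Arntl as a term in the model, a setting added after the data were seen, 0 genes passed the threshold and 340 had an unadjusted p under 0.05.

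**Figure D5:**
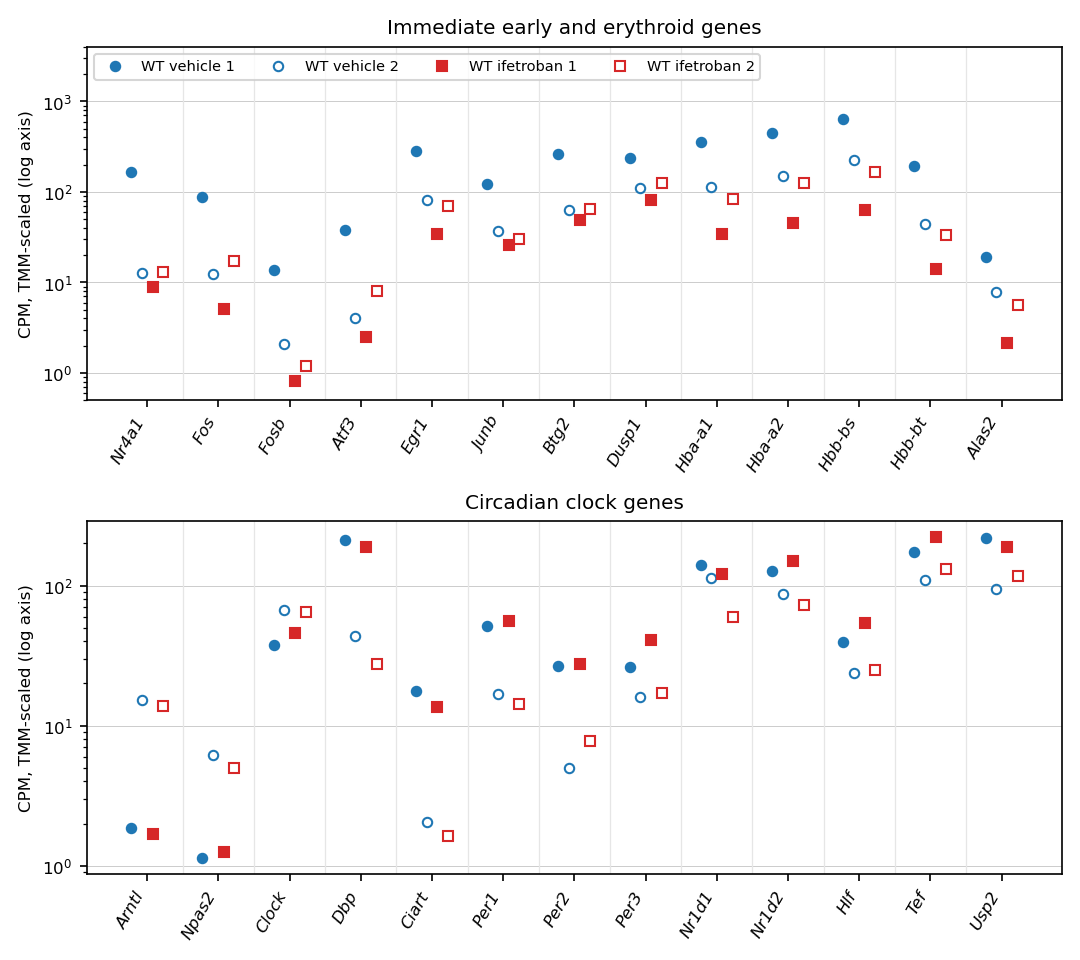
Level in TMM-scaled CPM (log axis) of immediate early and erythroid genes (top) and of clock genes (bottom) in each wild-type library (circles vehicle, squares ifetroban, filled for replicate 1 and open for replicate 2). In the top panel WT vehicle replicate 1 is the highest library for each gene. In the bottom panel filled and open symbols separate for each gene whatever the treatment. For Arntl, Npas2, Dbp, Ciart, Per1 and Per2 the difference is past 2-fold in both treatment groups.

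The letters through which the loop acts can be seen in some of these promoters. The following are the 250 bases before 1 RefSeq transcription start each of Ciart, Per1 and Arntl (GRCm38.p6). Ciart and Per1, whose windows hold an E-box, were high where Arntl was low, as were Dbp and Per2. Capitals mark the palindromic E-box CACGTG.
Ciart, chr3:95882229-95882478, minus strand: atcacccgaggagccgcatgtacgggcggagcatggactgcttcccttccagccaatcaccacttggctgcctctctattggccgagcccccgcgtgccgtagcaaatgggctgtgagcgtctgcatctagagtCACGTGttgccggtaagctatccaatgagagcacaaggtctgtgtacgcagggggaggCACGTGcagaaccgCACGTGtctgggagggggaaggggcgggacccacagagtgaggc
Per1, chr11:69098699-69098948, plus strand: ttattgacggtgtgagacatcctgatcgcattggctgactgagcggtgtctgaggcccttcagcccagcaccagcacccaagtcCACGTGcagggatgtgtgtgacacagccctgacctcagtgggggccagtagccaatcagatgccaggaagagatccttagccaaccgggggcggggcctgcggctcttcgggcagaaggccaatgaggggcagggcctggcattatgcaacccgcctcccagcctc
Arntl, chr7:113207215-113207464, plus strand: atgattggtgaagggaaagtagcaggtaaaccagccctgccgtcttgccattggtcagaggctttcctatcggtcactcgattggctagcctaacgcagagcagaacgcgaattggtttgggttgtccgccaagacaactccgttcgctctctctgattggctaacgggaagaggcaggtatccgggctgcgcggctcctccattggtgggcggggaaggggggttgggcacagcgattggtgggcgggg
The Ciart window holds the E-box 3 times, that of Per1 1 time and that of Arntl 0 times. Per1 has another RefSeq start, and its window (chr11:69099902-69100151) holds 0 copies, as does a further, overlapping window of Arntl. Most other clock genes that were higher in the replicates numbered 1 of both groups lacked it. The windows of Dbp, Hlf, Usp2, Per3, Nr1d1, Nr1d2, Cry2, Csnk1e and Tsc22d3 hold 0 copies. Those of Bhlhe41 and Tef do hold it, and Per2, Wee1 and Bhlhe40 have no window. In all, 29 windows were found for 19 of the 24 clock genes. CACGTG was present in 6 of the 29 windows, which belong to Bhlhe41, Ciart, Cry1, Per1 and Tef, against 6.02% of all 32851 RefSeq windows of this length. TAGGTCA, the core of the element bound by ROR and NR1D proteins, searched on both strands, was present in 1 of the 29 (Nfil3), against 2.23% of all windows. A match describes the letters only, and its absence says nothing about elements outside the window.

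Other genes split the same way by replicate number and were picked after their values were seen. Among 39 genes averaging 1 CPM or more with a difference past 2-fold in both groups, Lgr6, a receptor of R-spondins, was at 3.33 and 5.41 CPM in the replicates numbered 1 and 22.1 and 23.7 CPM in those numbered 2. The Z-disc gene Tcap, or telethonin, was at 1734 and 1340 CPM against 727 and 634 CPM, and Eln (elastin) at 14.2 and 12.7 against 30.9 and 26.4 CPM. Adamts4, a protease of matrix proteoglycans, was at 0.256 and 0.363 against 2.51 and 2.25 CPM. The values of each gene were close within a number and far apart within a treatment group. Over all genes, 120 differed past 2-fold in the same direction in both groups and 129 in opposite directions.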

How the data were processed

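RNA-seq was deposited for 9 left ventricle libraries as estimated counts per gene, made by the authors (the expected-count kind). The submitters' processing notes name bcl2fastq, STAR, Partek and the build mm10, and say nothing of how reads were counted or whether strand was used. In the wild-type files 27.7% of the deposited estimated counts were not whole, 81.5% lay within 0.01 of a whole number, and values were rounded. Coordinates are the deposited ones with 1 taken from the end, since 15571 of 19704 symbols shared with GENCODE M21 then matched it exactly, against 70 before.

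Libraries were grouped by title. Genes kept by filterByExpr (minimum count 10) numbered 15549 of 20634. They were scaled with TMM factors and tested with edgeR 4.0.16 (robust quasi-likelihood, R 4.3.3) on 4 group means over 9 libraries, with Benjamini-Hochberg adjustment and a threshold of 0.05. CPM are TMM-scaled, and a standard error is the log2 fold change divided by the root of F. The common biological coefficient of variation was 0.176. Transcript length is that of the longest GENCODE M21 transcript, known for 96.1% of tested genes.

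The 34 gene lists (899 entries, 885 in the files, 840 tested), the comparison and the named genes were chosen with earlier results of these data known. Named were Tbxa2r, Nppa, Nppb, Myh7, Sgcd, the tested prostanoid genes, the 12 genes with the smallest p in each direction (at least 1 CPM, groups not overlapping, no predicted-gene symbols), and up to 3 members of a list with the smallest unadjusted p. Clock genes other than Wee1, the remaining genes of the plot of immediate early, erythroid and clock levels, Hbb-bs and the genes split by replicate number were named after their values were seen. Promoter windows are those of RefSeq (GRCm38.p6).

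Alternatives were DESeq2 1.42.0, its size factors, limma-voom (limma 3.58.1), no filter, a stricter one (every library of some group at 1 CPM), the 4 wild-type libraries alone, a replicate block, the length slope as a term, a spline offset (4 degrees of freedom) on length and GC content, protein-coding genes alone, and each library left out. The length slope entered as the sign of each library's slope. Arntl level, alone and with the length slope, was added after seeing the data. On simulated counts for 15549 genes, of which 200 were made to differ, the test made 12 false calls. Deviations of same-numbered wild-type libraries from their group means had r = 0.04 over all genes, and the main fit did not pair them. That value does not show whether they were collected or handled as pairs. Over the clock list, r between the replicate differences was 0.945.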

Additional observations from a re-analysis of the deposited data

How the results depend on the processing

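The count of genes past the threshold was 0 under each of the 21 alternatives, including each library left out in turn (lowest and highest count 0 and 0), and the smallest adjusted p under any of them was 0.241, without WT vehicle replicate 2. With a replicate block it was also 0, and the number at an unadjusted p under 0.05 was 599 in place of 350. That number was 653 without KO ifetroban replicate 1, 219 without WT vehicle replicate 1 and 2941 without WT vehicle replicate 2, and it lay between 240 and 508 under the other settings. DESeq2 split its 311 into 106 higher and 205 lower, and edgeR its 350 into 160 and 190. Of 84 named genes, 20 changed sign of the log2 fold change under some setting, and none of the 84 had an adjusted p under the threshold in any.

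Over the 9 fits that leave out 1 library, the log2 fold changes of genes that changed sign ranged as follows: Tbxa2r -0.56 to 0.31, Nppa -0.0362 to 0.39, Nppb -0.60 to 0.32, Tbxas1 -0.52 to 0.17, Ptgs1 -0.38 to 0.0584, Ptgs2 -2.15 to 0.54, Ptgis -0.58 to 0.18, Ptgir -0.11 to 0.25, Ptger1 -0.15 to 1.39, Ptger4 -1.16 to 0.37, Ptgfr -0.48 to 0.73, Hpgds -0.27 to 0.33, Ptges -0.62 to 0.96, Ptges2 -0.20 to 0.0687, Ptges3 -0.62 to 0.0263, Pla2g4a -0.17 to 0.46, Hpgd -0.12 to 0.65, Slco2a1 -0.15 to 0.62 and Cidea -0.73 to 0.10. With the length slope as a term, values were 0.0429 for Nppb, 0.0035 for Ptgis, -0.17 for Ptgir, 0.0255 for Ptges2, 0.019 for Ptges3 and 0.0609 for Cbr1. With the length and GC offset they were 0.0913 for Nppb, 0.0544 for Cbr1 and -0.006 for Slco2a1. For Hpgds they were 0.0038 with limma-voom, 0.0076 with no filter, 0.0351 with the replicate block and 0.0098 with the Arntl term, and for Ptges 0.0764 with limma-voom and 0.0373 with the Arntl term. With Arntl level and length slope together they were 0.16 for Nppb, -0.16 for Ptgir, 0.0398 for Ptges2, 0.0465 for Ptges3 and 0.0681 for Cbr1. The cause was not tested. All of these genes have intervals that include 0, and depth limits the genes below 1 CPM most, with intervals of 1.40 to each side.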
